A study of Arabidopsis thaliana with 6 samples.

Results

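The transcripts of atcep1 flower buds at stage C, which covers anther stages 10 to 11, were set against those of wild-type buds of the same stage. The comparison rests on 2 of the 6 libraries of the study, 1 per genotype, chosen by their labels for genotype and anther stage. The plants were Arabidopsis thaliana of ecotype Columbia, either wild type or atcep1, a mutant of the papain-like cysteine protease gene CEP1. Both were grown on a soil mix at 23 °C with 14 h of light and 10 h of darkness. The study also sequenced each genotype once at stage A (anther stages 5 to 6) and once at stage B (7 to 9), and these 4 libraries are given beside the stage C values. The labels name neither the allele nor how many plants gave buds, and each group analysed here has 1 library, so that no value at stage C has a replicate check and no test over samples could be made.

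At anther stages 10 to 11 the tapetum, the innermost cell layer of the anther, normally breaks down by programmed cell death and leaves lipids and proteins on the surface of the maturing pollen. Earlier the tapetum releases the enzymes that free the microspores from their callose wall and makes the sporopollenin of the outer pollen wall, the exine. CEP1 is known as a protease of tapetal cell death. A whole bud holds sepals, petals, carpels and filaments besides the anther. In such bulk RNA, fewer cells of a type and less RNA per cell cannot be told apart.

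The libraries were of like depth, with 4.25 M uniquely mapped reads (M, 1e6 reads) in wild type and 4.41 M in atcep1 at stage C, and between 4.04 and 4.16 M in the other 4. A count of 3 reads, taken as the floor of detection, corresponds to 0.706 CPM (counts per M reads of the library) in the wild-type and 0.680 in the atcep1 stage C library. The labelled tissue was checked against marker genes. Of the 9 floral organ identity genes 7 reached 5 RPKM (reads per kilobase of model and per M reads of the library), with AP3, which specifies petals and stamens, at 210 and 275 RPKM in wild type and atcep1. All 5 seed storage genes had 0 reads in every library, and the 3 root hair genes summed to 1 read in wild type and 6 in atcep1 at stage C. The 3 leaf genes summed to 2257 and 2376 CPM, with no member called. Chloroplast genes took 11028 CPM in wild type and 6956 in atcep1, and mitochondrial genes 3219 and 1785. With library totals that leave out organelle genes, 1093 loci were called higher and 490 lower, in place of 1107 and 528 (calls are defined below). Any other part of these organelle shares in the results was not tested.

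CEP1 itself (AT5G50260, chromosome 5, 20455317 to 20457029, plus strand, TAIR10) had 6 reads in each stage C library, or 0.917 RPKM in wild type and 0.883 in atcep1. Its read ratio was 0.963, with a 95% counting interval of 0.257 to 3.60. At stages A and B it had 0 and 1 wild-type reads beside 4 and 5 atcep1 reads. The gene lay near the floor in all 6 libraries, and its level does not check the genotype labels.

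Loci were compared by log2((atcep1 RPKM + 1)/(wild-type RPKM + 1)), called the log2 ratio here. A call of higher needs a ratio of 1 or more, a call of lower -1 or less, and both need 5 RPKM or more in the higher library, and rose or fell is written of called loci only. Of 13586 loci that reached 5 RPKM at stage C, 1107 (8.15%) were higher and 528 (3.89%) lower in atcep1. The rises were also the larger changes, with 292 loci past 4-fold upward and 37 past 4-fold downward. For 635 loci (4.67%) the whole 95% counting interval of the read ratio lay above 2-fold, and for 76 (0.559%) it lay wholly below the matching fall. With no fold required the order was reversed. The interval lay below 1 for 4141 loci (30.5%) and above 1 for 2981 (21.9%). The median log2 ratio of all tested loci was -0.11, and that of 11828 loci with 5 RPKM in both libraries was also -0.11. A locus that reached 5 RPKM in 1 library only was bound to differ, so counts of tested members describe these libraries and are read beside the background. Centred on the median, 1264 loci were higher and 362 lower, so that 77.7% of the calls were rises in place of 67.7%.

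Genes of the tapetum were higher in atcep1. All 9 tested members of the list of tapetal secreted and tetrad genes passed the call, out of 12 members in the list, with a median log2 ratio of 2.98 against -0.11 over all tested loci. Together the list took 79.8 CPM in the wild-type and 663 in the atcep1 stage C library, a read ratio of 8.31 (95% counting interval 7.43 to 9.33). The wild-type libraries of stages A and B held 993 and 565 CPM of these genes, and those of atcep1 3138 and 2267. The summed level was thus lower at each later stage in both genotypes, and the atcep1 stage C library stood above the wild-type library of stage B.

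A6 (AT4G14080, chromosome 4, 8118537 to 8120358, minus strand), which encodes a glucanase-like protein of the tapetum linked to the release of microspores from callose, had the largest log2 ratio of the named genes. Wild type held 628, 259 and 5 reads of it over the successive stages A to C, where atcep1 held 3642, 1980 and 740. At stage C this was 0.708 against 101 RPKM, a read ratio of 142 (60.8 to 440) and a log2 ratio of 5.90, where stages A and B gave 2.49 and 2.88. The wild-type level almost vanished at stage C while that of atcep1 remained above the wild-type level of stage A.

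ATA20, an anther-specific gene coding for a protein with repeats, had 37, 57 and 8 wild-type reads over the stages, beside 514, 625 and 203 atcep1 reads (stage C read ratio 24.4, 12.2 to 57.4). A9, a lipid-transfer-like protein gene used as a tapetal marker, had 297, 104 and 7 wild-type reads beside 823, 539 and 79 atcep1 reads (10.9, 5.03 to 27.9). ATA1, a dehydrogenase-like tapetal gene, had 41, 23 and 0 wild-type reads beside 252, 154 and 37 atcep1 reads. Against a wild-type floor of 3 reads it was 11.9-fold higher at stage C, a value that leaves out counting error. The other called members were ATA7, ATA27, CALS5, AT5G52160 and AT5G62080, with log2 ratios of 1.92, 2.50, 2.26, 2.98 and 2.27. CALS5, a callose synthase of the tetrad wall, went from 92 to 556 reads at stage C but stood at 115 and 107 reads in wild type and atcep1 at stage A. The 3 members below 5 RPKM were the pectin-degrading tetrad genes QRT1, QRT2 and QRT3, which had 7, 1 and 0 wild-type reads beside 11, 12 and 4 atcep1 reads at stage C.

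**Figure D1:**
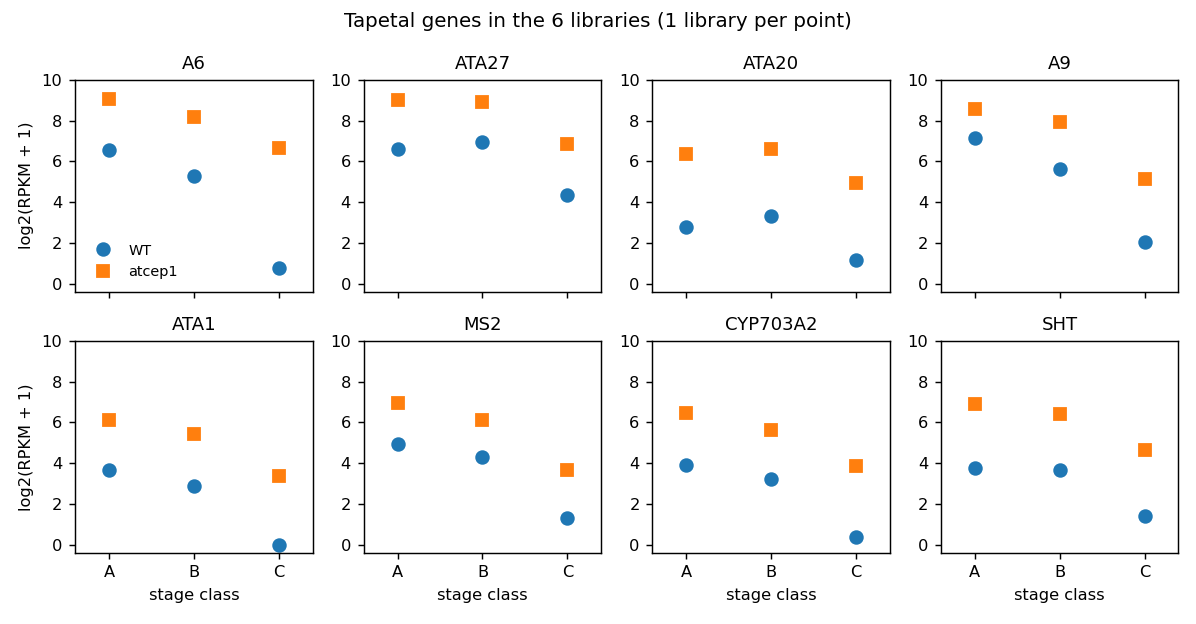
Levels of 8 tapetal genes in all 6 libraries as log2(RPKM + 1) on the vertical axis, by stage class on the horizontal axis; each point is 1 library, circles wild type and squares atcep1. In every panel the atcep1 point lies above the wild-type point at each stage, and A6 has the widest gap, at stage C (0.708 against 101 RPKM).

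The promoter of ATA1 is shown as an example of a tapetal gene, with its E-box (CANNTG, the core bound by bHLH factors such as the tapetal regulator AMS) in capitals. It is the 250 bases before the start in the deposited annotation, at chr3:15019686-15019935 on the minus strand. The bases are from the TAIR10.1 reference sequence and are printed 5′ to 3′ along the gene. An E-box stands in 54.2% of all 23798 promoters of this length and in 57.5% of those of the called rises, searched on both strands. In the list of tapetal secreted genes 6 of 12 promoters (50%) held one, and 36.4% of those of the tapetum regulators, both shares below that of all promoters. A match is a description and not a site, and the promoters and motifs shown were chosen after the values and matches were seen.
ATA1: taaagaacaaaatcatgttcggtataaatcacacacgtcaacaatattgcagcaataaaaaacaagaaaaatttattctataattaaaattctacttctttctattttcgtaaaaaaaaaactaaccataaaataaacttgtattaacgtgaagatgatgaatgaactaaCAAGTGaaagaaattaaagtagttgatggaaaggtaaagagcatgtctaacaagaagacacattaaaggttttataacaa

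Exine genes were higher in 8 of 12 tested cases and lower in 0, with a median log2 ratio of 2.43 (1.23 with a pseudocount of 5, still with 8 higher). Summed over the list, the change was smaller, from 149 to 357 CPM, with a 95% counting interval of 2.19 to 2.64 for the read ratio. CYP703A2, which hydroxylates fatty acids for sporopollenin, had 91, 54 and 2 wild-type reads over stages A to C beside 574, 318 and 94 atcep1 reads. Its stage C read ratio was 45.3, with a wide counting interval of 12.2 to 379 that rests on the 2 wild-type reads. PKSB, a polyketide synthase of the same pathway, had 5 against 98 reads (read ratio 18.9), ACOS5, the acyl-CoA synthetase, 2 against 45 (21.7, 5.66 to 184), and MS2, a fatty acid reductase, 13 against 110 (8.15). SHT and TSM1, which modify the phenolamides of the pollen surface, had 11 against 161 and 30 against 235 reads. The called members also held CYP704B1 and CYP98A8 (log2 ratios 2.67 and 1.46).

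The 4 tested exine genes without a call were PKSA, TKPR1, CYP98A9 and NPU. PKSA, the partner of PKSB, had 130 and 151 reads at stage C (log2 ratio 0.16), although it stood at 273 against 828 and 179 against 576 at stages A and B. TKPR1, a reductase acting after both, had 129 against 160 reads (0.25). Wild type thus held 130 reads of PKSA and 5 of PKSB at stage C, against 273 and 327 at stage A. The transporter gene ABCG26, with 5 against 41 reads, stayed under the 5 RPKM limit.

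Tapetum regulators showed no common direction. Of 22 list members 8 were tested, 1 was higher and 1 lower, with a median of -0.14. AMS, a bHLH factor that controls many exine genes, rose from 42 to 120 reads (read ratio 2.75, 1.92 to 4.01). MYB33, a factor linked to tapetum development, fell from 47 to 19 reads (0.389, 0.216 to 0.676), a call that ended under TMM, DESeq2 and median scaling. With a pseudocount of 5 neither gene was called. Other regulators lay at the edge of detection: MS1 had 1 against 8 reads, MYB80 0 against 3, TDF1 2 against 3 and DYT1 1 against 0. Receptor genes of early anther patterning were tested without a call, EMS1 at 511 against 342 reads (log2 ratio -0.61) and SERK2 at 444 against 359 (-0.35).

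All 11 tested pollen coat genes were higher, of 17 in the list, with a median of 1.55 and a range from 1.21 to 2.48. The glycine-rich oleosin gene GRP20 had 276, 822 and 496 wild-type reads beside 2140, 4197 and 1608 atcep1 reads (stage C read ratio 3.12, 2.82 to 3.46). EXL4 and EXL6, lipase-like proteins of the coat, had 202 against 526 and 167 against 452 reads. CER6, which lengthens wax fatty acids, had 33 against 173 reads, and ABCG31, a transporter of coat lipids, 35 against 218. The ratios of these genes were closer to each other than those of the exine genes, whose log2 ratios ran from -0.34 to 3.47.

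Pollen genes rose in 14 of 28 tested cases and fell in 0, with a median of 1.01. AHA6, a plasma membrane proton pump, had 351 against 3251 reads (read ratio 8.92, 7.99 to 9.98), and STP6, a sugar carrier, 21 against 450 (20.6, 13.3 to 33.7). The sugar carrier STP9 had 69 against 567 and the vacuolar water channel TIP1;3 24 against 218 reads. The actin-binding genes PRF4, PRF5, ADF7 and ADF10 rose as well, with log2 ratios between 1.65 and 2.11. Other genes of mature pollen had near equal values: VGDH1, a pectin methylesterase, had 4855 and 4826 reads, AHA9 839 and 894, and the kinase gene CPK17 215 and 192. STP11, another carrier of the same family, had 422 against 324 reads (log2 ratio -0.43). The generative cell regulator DUO1 had 0 and 6 reads.

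**Figure D2:**
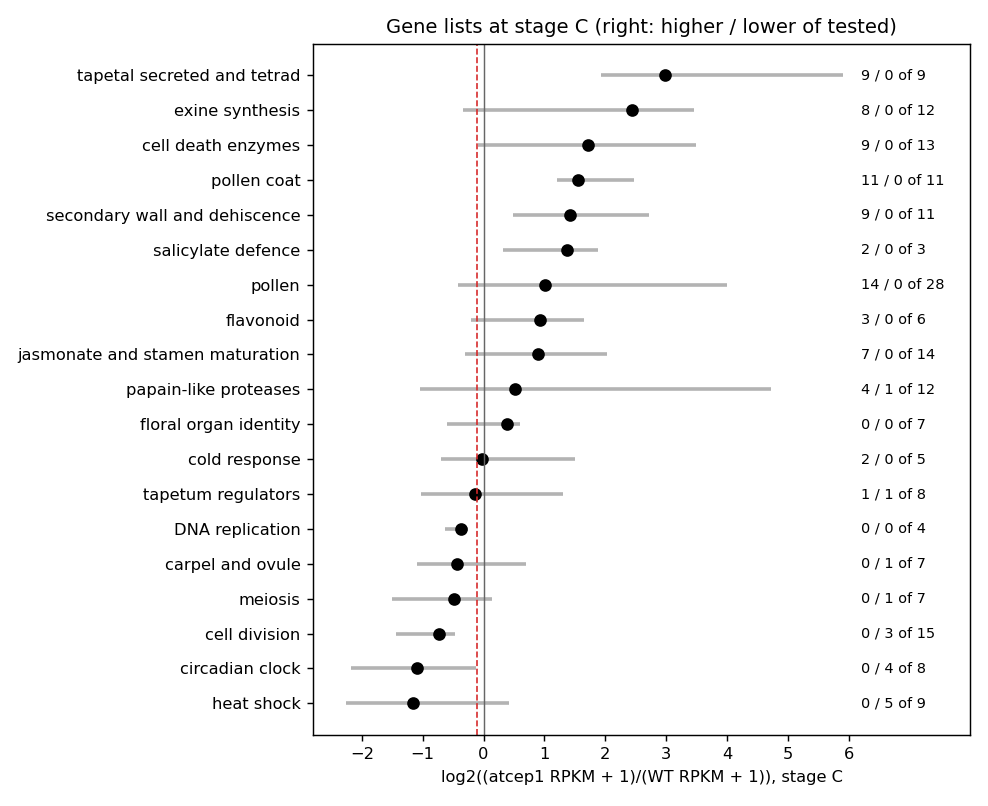
Median log2 ratio at stage C (points) and range (grey lines) of the tested members of 19 gene lists; the dashed line is the median of all tested loci, -0.11, and the right-hand figures count members called higher and lower of those tested. Tapetal secreted, exine, cell death and pollen coat genes lie at the top, with medians of 2.98, 2.43, 1.72 and 1.55, and the clock and heat shock lists at the bottom, at -1.09 and -1.16.

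The papain-like protease family that includes CEP1 was higher in 4 of 12 tested cases and lower in 1 (median 0.52). SAG12 (AT5G45890, chromosome 5, 18613259 to 18614930, plus strand), a protease known from senescing leaves, had 0, 0 and 1 wild-type reads over stages A to C beside 19, 5 and 168 atcep1 reads. Its stage C read ratio of 162 has a counting interval of 28.6 to 6426, since it rests on 1 wild-type read. THI1 rose from 10 to 65 reads, RD21C from 110 to 452 and XCP2, a protease of dying xylem cells, from 109 to 267. CTB1, a cathepsin B gene, fell from 122 to 59 reads (0.466, 0.335 to 0.640), and under TMM, DESeq2 and median scaling or a pseudocount of 5 the list held 0 lower calls. The abundant members did not pass the fold: RD21A had 1852 against 3420 reads, RD19C 1443 against 2813 and RD19A 4402 against 4321. CEP2 had 7 against 19 reads and CEP3 16 against 13.

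Enzymes of developmental cell death rose in 9 of 13 tested cases and fell in 0, with a median of 1.72. MC9, a metacaspase of xylem cell death, had 1 against 68 reads (read ratio 65.5, 11.4 to 2623, on 1 wild-type read). The nuclease gene BFN1 had 15 against 97 reads (6.23, 3.59 to 11.6), the ribonuclease gene RNS3 8 against 78 and the aspartic protease gene PASPA3 7 against 42. BETA-VPE, a vacuolar processing enzyme, had 53 against 199 reads (3.61, 2.66 to 4.99). The 4 tested members without a call were MC1 (222 and 217 reads), MC4 (312 and 445), RNS2 (79 and 119) and GAMMA-VPE (574 and 813). Genes of xylem and secondary walls were also higher in atcep1.

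The secondary wall and dehiscence list was higher in 9 of 11 tested cases and lower in 0 (median 1.42), or in 4 of 11 with a median of 0.84 at a pseudocount of 5. The lignin laccase LAC4 had 13, 82 and 108 wild-type reads beside 188, 615 and 784 atcep1 reads (stage C read ratio 6.99, 5.71 to 8.63). The secondary wall cellulose synthases CESA4, CESA7 and CESA8 stood at read ratios of 2.97, 2.85 and 3.31. ADPG1, a polygalacturonase of anther opening, had 6 against 49 reads. The list summed to 120 CPM in wild type and 424 in atcep1, and its part in the rise of XCP2 and MC9 was not tested.

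Jasmonate and stamen maturation genes were higher in 7 of 14 tested cases and lower in 0 (median 0.89). The 13-lipoxygenase gene LOX2 rose from 4667 to 12864 reads (2.65, 2.57 to 2.74), and LOX3 from 267 to 770. MYB21, MYB24 and MYB57, factors of late stamen growth, had 330 against 761, 68 against 182 and 25 against 127 reads. The following steps of the pathway changed less, with AOS at 105 against 171 reads and AOC4 at 1131 against 1398, neither past the fold. Of 6 tested flavonoid genes 3 rose: CHS, the entry enzyme, from 2154 to 7078 reads, CHI from 188 to 441 and UGT79B6 from 10 to 39. FLS1, the flavonol synthase, had 205 and 183 reads. Of 3 tested salicylate defence genes PR5 (25 against 107 reads) and PAD4 (18 against 62) rose, of which 1 was called with a pseudocount of 5. PR1, below the limit of 5 RPKM, had 1 and 0 reads.

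Families gathered by the words of their annotation differed in how many members were called (background 8.15% higher and 3.89% lower). Among families with at least 10 tested members, the largest shares of rises were in defensin-like proteins (18 of 27, with 1 lower), DUF26 proteins (9 of 14), plant self-incompatibility S1 proteins (6 of 11) and class III peroxidases (11 of 21). Lipid transfer proteins followed with 23 of 49 higher and 4 lower, GDSL lipases with 17 of 38 and 2, and 3-ketoacyl-CoA synthases, which elongate wax and suberin fatty acids, with 8 of 18 and 0. The pectin-acting families rose in part, with 25 of 65 pectin methylesterases and inhibitors and 13 of 51 pectin lyase-like proteins and polygalacturonases. Late embryogenesis abundant proteins were higher in 13 of 37 cases. With a limit of 1 RPKM, defensin-like proteins had 26 of 55 higher and 6 lower, and DUF26 proteins 14 of 26 and 0. At that limit S1 proteins had 8 of 22 and 0, and class III peroxidases 16 of 37 and 2. The median log2 ratio of the peroxidases was then 0.48, in place of 1.08. Families overlap, and small families of near-identical members may share reads that a count of unique reads leaves out.

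The defensin-like family took 1313 CPM in wild type and 1281 in atcep1, although 18 members rose. LCR69, the single member that fell, went from 2901 to 1057 reads (0.351, 0.327 to 0.377). LCR33 had 1 against 26 reads, LCR34 5 against 48 and LCR4 7 against 52. Such secreted cysteine-rich peptides include signals between pollen and pistil, although the roles of these 3 are not annotated in the files.

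Several of the family members carried large counts. The late embryogenesis abundant gene UNE15 had 95 against 1170 reads (11.9, 9.61 to 14.8), and its relatives AT5G38760 and AT5G53820 136 against 1591 and 262 against 2762. The pollen wall oxidase-like genes sks11 and sks12 had 458 against 2635 and 1616 against 5661 reads. The subtilase gene ATSBT4.13 had 65 against 602 reads (8.92, 6.90 to 11.7), the cytochrome P450 gene CYP76C3 of flower terpene metabolism 66 against 679, and the amino acid transporter gene AT1G71680 80 against 954. ABCG1 and ABCG6, transporters linked to suberin and the pollen wall, had 50 against 304 and 12 against 107 reads. In all of these the atcep1 library held several times the reads of the wild-type library.

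**Figure D3:**
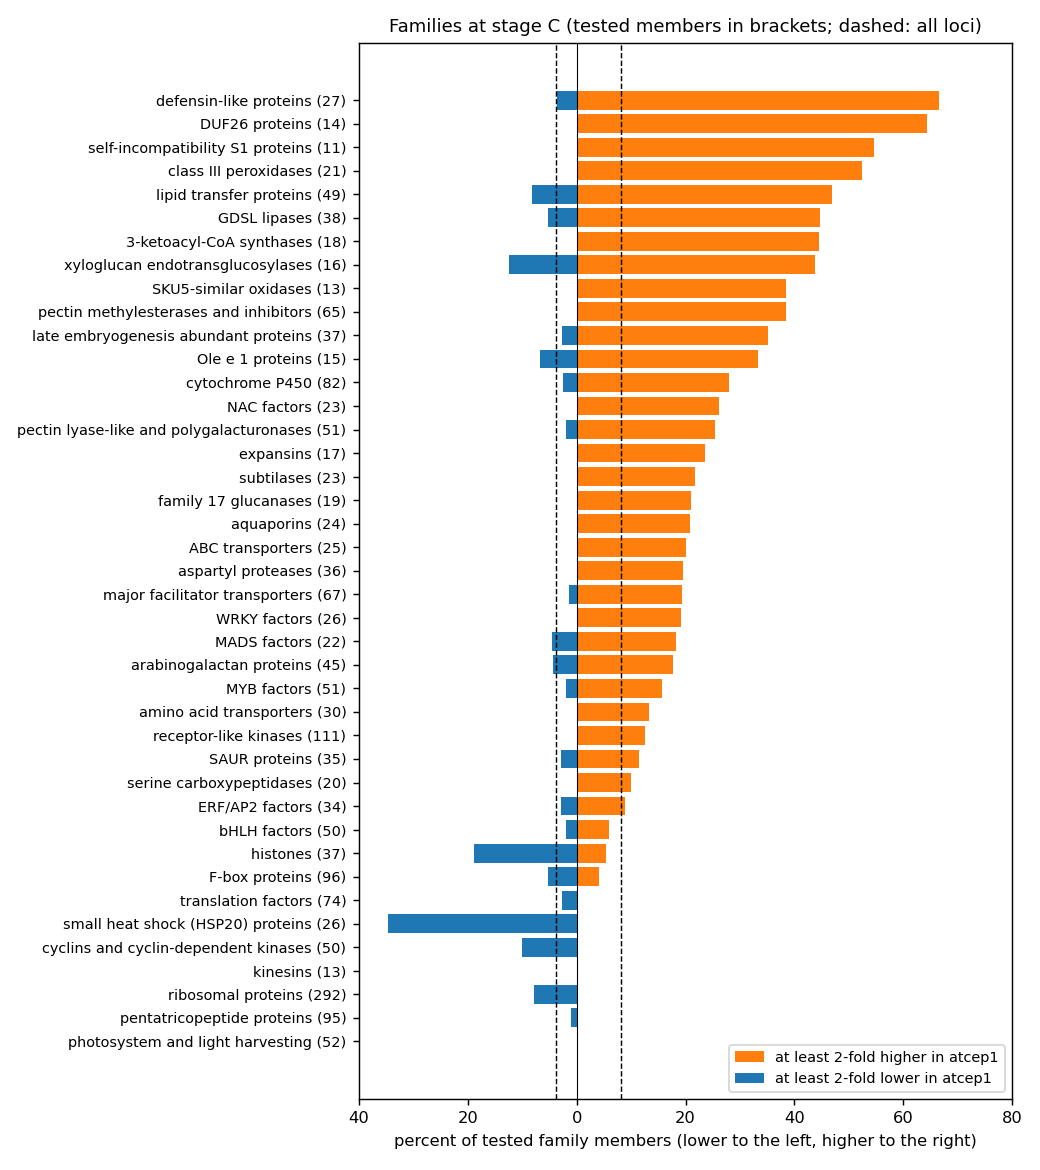
Percent of the tested members of each family that were at least 2-fold higher (to the right) or lower (to the left) in atcep1 at stage C, for families with at least 10 tested members, whose number stands in brackets; dashed lines mark all tested loci, 8.15% higher and 3.89% lower. Secreted protein and cell wall families head the plot, and small heat shock proteins, histones, xyloglucan endotransglucosylases and cyclins reach furthest to the left.

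Other rises by the size of the log2 ratio were of genes with few wild-type reads. The DUF26 gene AT3G21990 had 10 against 379 reads (36.5, 19.6 to 76.7), AT3G63095 10 against 251 (24.2, 12.9 to 51.0) and the fasciclin-like gene AT5G16920 6 against 195 (31.3, 14.1 to 86.3). AT5G44540, annotated as the tapetum-specific protein TAP35/TAP44, had 416, 148 and 4 wild-type reads beside 1483, 852 and 99 atcep1 reads. The phosphate transporter gene PHT1;7 had 9 against 245 reads, the fasciclin-like gene FLA14 7 against 150, AT4G10603 6 against 102 and the invertase or pectin methylesterase inhibitor gene AT5G46940 9 against 153. AT3G63095, AT5G16920 and AT5G44540 followed the course of A6, with many reads in wild type at stages A and B, whereas PHT1;7 and AT3G21990 had at most 10 reads in any wild-type library.

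Taken by level, the largest gains were of genes of several kinds. AT2G20870, annotated as a cell wall protein precursor, went from 1798 to 5778 RPKM, the lipid transfer protein gene LP1 from 1873 to 4504, and PRP4, a proline-rich wall protein, from 261 to 1950. LP1 had stood at read counts of 4770 and 6230 in wild type and atcep1 at stage A and 5355 and 6144 at stage B, without a call. Next came the Ole e 1 family gene AT5G22430 (697 to 2185 RPKM), the DUF1216 gene AT3G28790, the late embryogenesis abundant gene AT5G53820 and the polygalacturonase-like gene AT3G07850, while sks13 went from 1255 to 2391 RPKM at a log2 ratio of 0.93, just short of the call.

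At stage C 10 loci had 0 wild-type reads and at least 15 atcep1 reads, a choice made after the values were seen. ATA1 and the hydrolase gene AT5G14980, with 34 reads, were the farthest from the floor. Against a wild-type floor of 3 reads they were 11.9-fold and 10.9-fold higher, values that leave out counting error. LBD2, a LOB-domain factor, had 46, 22 and 0 wild-type reads beside 110, 64 and 25 atcep1 reads, or 8.02-fold against the same floor at stage C. The others were AT1G62190, AT3G10890, GAD5, AT4G28397, AT4G29980, AT5G24100 and AT5G46970, each with 15 to 21 reads. In the other direction 3 loci had 0 atcep1 reads and at least 10 in wild type, namely FAS1 with 12, AT4G38215 with 13 and AT5G24600 with 11. FAS1 encodes a chromatin assembly factor subunit and was 4.15-fold lower against an atcep1 floor of 3 reads, again without counting error.

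Cell division genes had lower values throughout. None of 15 tested members lay above 0 on the log2 scale, the median was -0.73, and 3 passed the fold (2 after centring on the median, and 0 with a pseudocount of 5). The mitotic cyclin genes CYCB2;1, CYCB1;4 and CYCB1;3 fell, from 35 to 9, 132 to 59 and 109 to 50 reads. The cytokinesis syntaxin gene KNOLLE had 347 against 205 reads (0.569, 0.476 to 0.678), the spindle checkpoint gene CDC20.1 447 against 274 and the kinase gene AUR1 277 against 171. All 15 counting intervals lay below 1, against 30.5% of all tested loci. At stages A and B the medians of the same genes were -0.69 and -0.76.

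The 250 bases before CYCB2;1 (chr2:7663853-7664102, plus strand, TAIR10.1) are printed because they hold 3 copies of AACGG, the core of the mitosis-specific activator element, in capitals and on either strand. Of 17 promoters of the cell division list 76.5% held AACGG, against 22.7% of all promoters.
CYCB2;1: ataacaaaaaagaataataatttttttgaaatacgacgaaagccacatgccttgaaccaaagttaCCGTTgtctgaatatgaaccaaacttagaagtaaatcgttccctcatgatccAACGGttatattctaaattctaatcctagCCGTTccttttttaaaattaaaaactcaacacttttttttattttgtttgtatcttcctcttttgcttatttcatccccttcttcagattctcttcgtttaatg

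Histone genes were lower in 7 of 37 tested cases and higher in 2, with a median of -0.73. AT3G27360, annotated as a histone superfamily protein, had 248 against 104 reads and AT3G45930 277 against 121, while AT5G02570 rose from 23 to 59. Histone genes have near-identical copies, so the counts of single members are uncertain. The 4 tested replication genes PCNA1, MCM3, MCM4 and MCM6 had 422 against 280, 325 against 281, 406 against 316 and 192 against 154 reads, with 0 calls. Of 7 tested meiosis genes 1 fell, the crossover gene HEI10, from 118 to 37 reads (0.302, 0.203 to 0.440), with 0 calls at a pseudocount of 5. DMC1, the meiotic recombinase, had 107 against 55 reads (log2 ratio -0.94).

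In the carpel and ovule list 1 of 7 tested genes was lower, INO, a factor of the outer integument, from 128 to 60 reads (log2 ratio -1.09, and 0 genes lower after centring or with a pseudocount of 5). ANT, a growth factor gene of young organs, had 629 against 343 reads (-0.91). CRC, a carpel and nectary gene, went the other way in value with 244 against 412 reads (0.69). The floral identity genes of stamens and petals stayed within the fold, with AP3 at 924 against 1257 reads, PI at 745 against 1181 and SEP2 at 1138 against 1226.

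Clock genes of the evening were lower. Of 8 tested members 4 fell and 0 rose, with a median of -1.09. FKF1 (AT1G68050, chromosome 1, 25508676 to 25510889, plus strand), a blue light receptor of photoperiodic timing, had 119, 150 and 166 wild-type reads over stages A to C beside 13, 71 and 31 atcep1 reads. CCR2 (AT2G21660, chromosome 2, 9265249 to 9266393, minus strand), an RNA-binding protein under clock control, had 193, 272 and 479 wild-type reads beside 61, 176 and 128 atcep1 reads. ELF4, of the evening complex, had 200 against 46 reads at stage C and PRR5 350 against 150.

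The other tested clock genes had smaller differences. TOC1 had 780 against 412 reads (log2 ratio -0.96), ELF3 472 against 329, GI 925 against 696 and PRR7 932 against 892. The morning genes LHY and CCA1 lay below 5 RPKM, at 1 against 5 and 4 against 11 reads, and PRR9 had 1 read in each library. Whether reads shared by several models of a locus were left out of these low counts was not tested. The time of day at harvest is not given in the labels, so harvest time and genotype cannot be told apart for these genes. At stage B the same genes had a median of -0.27 and at stage A -0.69.

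Promoters of CCR2 (chr2:9266394-9266643, minus strand) and FKF1 (chr1:25508426-25508675, plus strand) are shown for their evening elements (AAAATATC, in capitals, on either strand). Both are the 250 bases before the start in the deposited annotation, with bases from TAIR10.1. CCR2 holds 4 and FKF1 holds 2. Of 12 promoters of the clock list 41.7% held the element, against 5.44% of all promoters. It stood in 7.82% of promoters of called falls and in 5.74% of those of tested loci.
CCR2: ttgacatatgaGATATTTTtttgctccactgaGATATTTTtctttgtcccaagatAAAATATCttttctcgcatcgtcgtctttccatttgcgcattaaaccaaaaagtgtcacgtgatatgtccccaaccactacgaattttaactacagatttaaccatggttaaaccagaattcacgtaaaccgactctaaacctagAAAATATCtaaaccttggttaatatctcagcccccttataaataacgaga
FKF1: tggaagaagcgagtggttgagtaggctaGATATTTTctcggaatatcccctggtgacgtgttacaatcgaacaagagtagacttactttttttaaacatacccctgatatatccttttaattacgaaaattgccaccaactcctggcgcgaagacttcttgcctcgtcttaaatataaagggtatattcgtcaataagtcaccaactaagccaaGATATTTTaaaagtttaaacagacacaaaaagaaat

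The heat shock list was lower in 5 of 9 tested cases and higher in 0 (median -1.16), and its members were of different kinds. The cytosolic small chaperone genes HSP17.6II, HSP17.4, HSP17.6A and HSP17.6C fell from 80 to 15, 87 to 18, 150 to 50 and 31 to 7 reads, and the mitochondrial HSP23.6 from 454 to 209. Not every small chaperone fell: HSP17.8 had 278 and 277 reads, and of 26 tested members of the whole small heat shock family 9 were lower and 0 higher (median -0.32). Among the large chaperones no member was called, with HSP70-4 at 2838 against 2991 reads, HSP90.1 at 1540 against 1209 and HSP101 at 524 against 732. At stage B the same 3 large chaperones had 945 against 2913, 373 against 1232 and 159 against 549 reads. The wild-type library thus held more of them at stage C than at stage B, while those of atcep1 differed less between the stages. HSFA2, the heat-induced regulator, had 4 against 14 reads.

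HSP17.4 is shown with its 250 bases before the start (chr3:16984842-16985091, minus strand, TAIR10.1), which hold 2 palindromic heat shock elements (GAANNTTC, in capitals). The element stood in 71.4% of 14 promoters of the heat shock list and in 9.89% of all promoters. Promoters of called falls held it in 10.4% of cases and those of tested loci in 9.71%.
HSP17.4: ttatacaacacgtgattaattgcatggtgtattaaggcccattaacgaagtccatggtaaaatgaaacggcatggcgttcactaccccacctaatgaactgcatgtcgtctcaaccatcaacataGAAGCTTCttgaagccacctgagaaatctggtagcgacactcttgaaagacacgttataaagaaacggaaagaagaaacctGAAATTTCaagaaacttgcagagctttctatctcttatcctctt

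**Figure D4:**
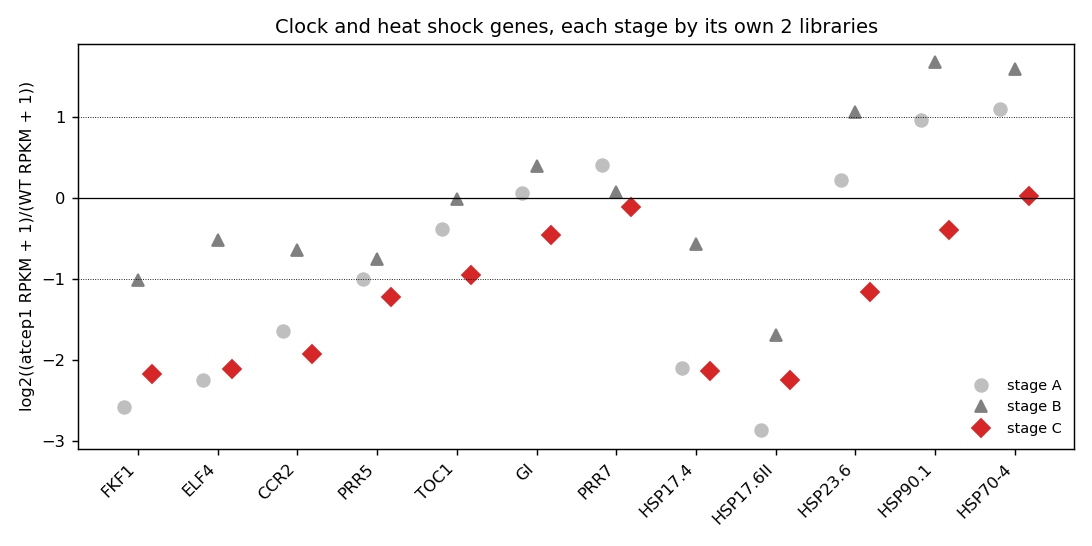
Log2 ratio of atcep1 over wild type (vertical axis) for 7 clock genes and 5 heat shock genes (horizontal axis) at stages A, B and C, each from its own pair of libraries; dotted lines mark the 2-fold limits. FKF1, ELF4 and CCR2 lie lowest among clock genes at stages A and C, and HSP23.6 lies at 1.06 at stage B and at -1.16 at stage C.

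Cold-response genes were mixed. Of 5 tested on the list 2 rose, COR47 from 917 to 1953 reads and KIN1 from 204 to 606, and COR78 had 393 and 402 reads. COR15B, outside the list, fell from 613 to 142 reads (0.223, 0.184 to 0.268), while its neighbour in name COR15A had 435 against 317. The regulators CBF1 and CBF2, which had 98 and 209 wild-type reads at stage A, were at 5 reads or fewer in both stage C libraries.

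The largest fall of all by the naming rule was that of OEP6, annotated with no known molecular function (AT3G63160, chromosome 3, 23333513 to 23334034, minus strand). It had 409, 542 and 721 wild-type reads beside 152, 260 and 148 atcep1 reads (stage C read ratio 0.198, 0.164 to 0.236). AT1G07050, a CCT motif gene, had 35, 65 and 162 wild-type reads beside 3, 62 and 35 atcep1 reads, nearly equal at stage B. The Ole e 1 family gene AT2G34700 fell from 216 to 48 reads, AT1G05550 from 165 to 35, AT3G01345 from 959 to 262 and AT4G30650, annotated as responsive to low temperature and salt, from 360 to 99. By level the largest losses were TCTP, a conserved growth regulator, from 7301 to 4405 RPKM, the metallothionein gene MT2B from 3654 to 2538 and THI2.1, a thionin, from 1782 to 792. Of these THI2.1 alone passed the fold.

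Ribosomal protein genes shifted together by a small amount. Of 292 tested 23 were lower and 0 higher, the median log2 ratio was -0.53 and 265 lay below 0. The family took 82978 CPM in wild type and 56666 in atcep1, a read ratio of 0.683 (0.679 to 0.686). At stages A and B the medians of the same loci were -0.20 and -0.17. Centred on the median of all loci, the family's median was -0.42, with 9 members lower and 1 higher. AT4G31985, of the ribosomal protein L39 family, had 949, 932 and 1053 wild-type reads beside 623, 546 and 454 atcep1 reads. The more abundant RPS18C had 6517 against 4018 reads (log2 ratio -0.75) and AT2G34480 9719 against 6112 (-0.72), neither past the fold. Translation factors had a median of -0.25, or -0.14 after centring, with 2 of 74 lower.

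AT4G31985 is shown for the pair of site II elements (TGGGCC, in capitals) in the 250 bases before its start (chr4:15469645-15469894, plus strand, TAIR10.1). Of 329 ribosomal protein promoters 58.4% held TGGGCC, against 15.9% of all promoters. The share was 19.1% for tested loci, 21.8% for called falls and 4.49% for called rises. The telo box AAACCCTA stood in 34.0% of ribosomal protein promoters and 6.40% of all. None of the motifs searched contains another.
AT4G31985: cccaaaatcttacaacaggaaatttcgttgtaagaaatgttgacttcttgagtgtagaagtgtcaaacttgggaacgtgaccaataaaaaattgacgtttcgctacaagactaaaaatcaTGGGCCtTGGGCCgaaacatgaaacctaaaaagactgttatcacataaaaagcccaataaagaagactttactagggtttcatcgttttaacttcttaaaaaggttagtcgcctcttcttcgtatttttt

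The log2 ratio at stage C also differed between length classes of the transcript model. It was -0.05 in the median for 131 loci up to 300 nucleotides, of which 31.3% were higher and 25.2% lower, and -0.28 for 295 loci up to 500. Its median was -0.34 for 1421 loci with models above 500 and up to 750 nucleotides and 0.01 for 966 loci above 3000 nucleotides. Ribosomal protein genes are short, and within that class their median was -0.57 (96 loci) against -0.32 for the other 1325 loci. Above 1000 and up to 1500 nucleotides the medians were -0.45 and -0.12. At stages A and B the median of the class from 500 to 750 was -0.21 and -0.21, and above 3000 nucleotides 0.10 and 0.09. The part of RNA integrity or fragment size in these differences was not tested.

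**Figure D5:**
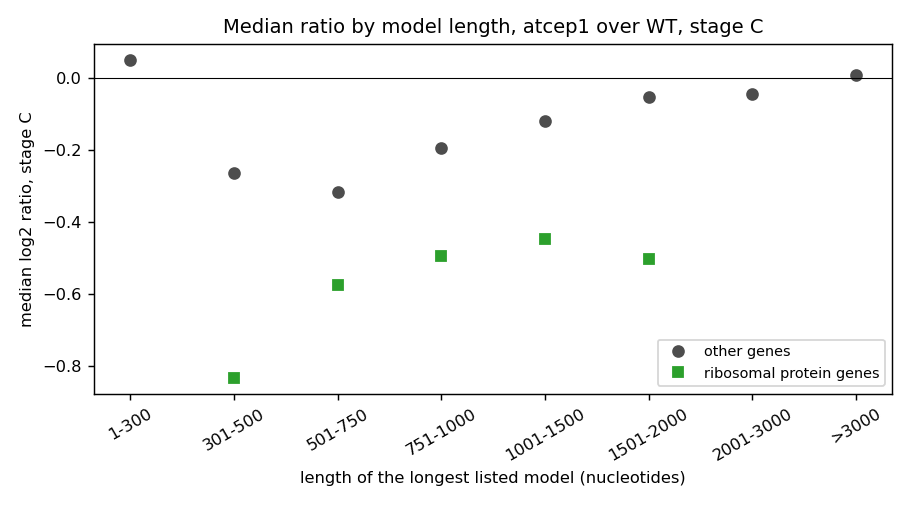
Median log2 ratio at stage C (vertical axis) by the length class of the longest listed model in nucleotides (horizontal axis), for ribosomal protein genes in classes with at least 10 of them (squares) and for all other loci (circles). Ribosomal protein genes lie below the other loci in each class shown, at -0.57 against -0.32 between 500 and 750 nucleotides.

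Transcripts of the organelles and small RNA genes held more lower than higher calls. Of 74 tested chloroplast loci 33 were lower and 1 higher (median -0.87), and of 31 mitochondrial loci 22 were lower and 0 higher (median -1.30). Of 32 small nucleolar RNA loci 12 were lower and 3 higher. Only 7 of the 32 had a counting interval below 1, where 30.5% of all tested loci did. The width of such an interval depends on the reads of the locus, so this share cannot show whether the class stood out. Summed over the class, tested or not, 1185 reads in wild type and 854 in atcep1 gave a read ratio of 0.694 at stage C (counting interval 0.635 to 0.758). By contrast, nuclear photosystem and light harvesting genes had 0 calls among 52 tested and a median of -0.21 (-0.09 after centring). CAB3 and LHCB1.1, which are near-identical copies, had 3789 against 3543 and 2805 against 3416 reads at stage C, while at stage B they had 8638 against 4135 and 8842 against 3364.

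The 3 stages use separate pairs of libraries, so their calls can be set side by side. Of the 1107 rises at stage C, 399 were also called at stage A (36.0% of the stage C and 48.5% of the stage A rises, which are 6.23% of the loci tested there). At stage B 556 were shared (50.2% of the stage C and 62.0% of the stage B rises, 6.64% of the loci tested). A set of 319 rose at all 3 stages, and 471 (42.5%) were called at neither A nor B. Falls were shared less, with 136 of 528 also lower at A (25.8% and 31.7% of each list; 3.25% of loci tested) and 156 at B (29.5% and 28.9%; 4% of loci tested), and 325 (61.6%) at neither. The sign was the same at A and B for 81.9% of the rises and 80.9% of the falls, against 36.1% and 40.3% of all tested loci for a positive and a negative sign.

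The wild-type libraries of stages A and B, which do not enter the comparison, give the normal course of the called genes. Of the 1107 rises 315 (28.5%) went up at least 2-fold from wild-type stage A to B and 33 (2.98%) went down, against 6.62% and 0.832% of all tested loci. Of the 528 falls 34 (6.44%) went up and 14 (2.65%) down. Among the 56 loci at least 8-fold higher in atcep1, 16 had gone up and 7 down. A6 and A9 were lower at stage B than at stage A in wild type (259 against 628 and 104 against 297 reads). The called rises held genes that were higher at stage B than at stage A in wild type, such as AHA6 (26 and 210 reads at A and B). They also held genes that were lower at B, such as MS2 (251 and 159 reads, a change below 2-fold).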

How the data were processed

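RNA of whole buds was measured in 6 libraries, and the 2 of stage C are compared here. Poly(A) RNA was selected, fragmented and made into PCR-amplified Illumina libraries with no strand marking named, per the labels' protocols, so antisense partners cannot be told apart. Per the file headers, the authors deposited 1 table per library with the count of uniquely mapped reads, the percent of each model covered and the RPKM of each transcript model. The deposited counts add up to the total in each header. The build is TAIR10, per the submitters' processing notes, and the aligner is not given in the sources used here. Unlisted models were set to 0. Coordinates and symbols are those of the files.

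Counts and RPKM of 30088 models were summed to 25964 loci. Reads shared by several models of a locus may be left out of a count of unique reads. A low count of such a locus need not mean low expression, which was not tested. The log2 ratio uses a pseudocount of 1 RPKM, which understates changes of low genes, and a call needs a log2 ratio of at least 1 or at most -1 and a higher RPKM of at least 5. Read ratios are per library total, with an exact conditional 95% (Clopper-Pearson) interval. These limits reflect counting error alone, as PCR duplicates of a molecule may be counted. With 1 library per group there is no test. Scripts used Python 3.11.15, numpy 2.4.6, scipy 1.17.1 and pandas 2.3.3, and were tested on simulated counts. Scaling alternatives used TMM factors (edgeR 4.0.16) and DESeq2 1.42.0 size factors in R 4.3.3. Promoters were the TAIR10.1 reference bases before the starts of the deposited annotation. Of 25743 loci compared with the reference annotation 25742 overlapped their counterpart, and 12124 (47.1%) had an end at the same base.

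The 22 gene lists hold 302 loci, 293 with a read; 42 families were taken from words of the annotation. Members, lists and tests were chosen with earlier results of these data known, and the family definitions were also edited after the stage C values were seen. Named genes are CEP1, the 12 largest rises and 12 largest falls with a higher RPKM of at least 10 and at least 50 reads, the 8 largest gains and losses in RPKM, and up to 4 called members per list or family with at least 20 reads, without transposon, organelle, ribosomal RNA and small nucleolar RNA genes. Other genes were named after their values were seen.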

Additional observations from a re-analysis of the deposited data

Results flagged for a closer look

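At stage C 6 genes with at least 50 reads were called in one direction that had been called in the other at stage A or B, each with 1 library per genotype and stage; these differences between stages were not tested. The log2 ratio at stage C was 2.23 for MEE26, a hydroxyproline-rich glycoprotein gene, which had 114 against 37 reads at stage A and 287 against 1412 at stage C. It was 1.40 for the nudix hydrolase gene atnudt21, with 432 against 86, 405 against 153 and 84 against 237 reads at stages A, B and C, and 1.08 for AT1G18740, with 411 against 184 reads at A and 73 against 168 at C. The mitochondrial small chaperone gene HSP23.6 stood at -1.16, after 1.06 at stage B. AT2G23910, a Rossmann-fold gene, stood at -1.27 with 40 against 87 reads at B and 70 against 27 at C. XTR6, a xyloglucan endotransglycosylase gene, stood at -1.002, after 1.26 and 1.03 at stages A and B; its stage C value was -0.93 with TMM factors, -0.95 with DESeq2 size factors and -0.89 after centring, so that its call ended under each. With a pseudocount of 5 the stage C values of AT1G18740 and AT2G23910 were 0.88 and -0.88, which ended both calls. Over all kinds of loci 14 had opposite calls.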

How the results depend on the processing

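No paired analysis was possible because each genotype and stage has 1 library; for the same reason no replicate could be left out. The counts of 1107 rises and 528 falls became 679 and 187 with a pseudocount of 5, 1666 and 867 with a higher RPKM of at least 1 or with no filter on low values, and 635 and 76 when the whole counting interval had to lie beyond 2-fold. In the first and last case the genes were a subset of those called; in the others they held all of them. Under the other alternatives (a pseudocount of 0.1, a limit of 10 RPKM, TMM factors, DESeq2 size factors, centring, totals without organelle genes, intervals that leave out 1, and loci with 1 listed model) rises ranged from 808 to 1264 and falls from 362 to 709. TMM factors gave 1202 and 417. The sign of a median flipped for family 17 glucanases, expansins, MYB factors, ERF/AP2 factors and cold-response genes under a scaling or a limit of 1 RPKM, to values of at most 0.21. No named gene with a call changed sign; CEP1, near 0, did (up to 0.09). At this depth genes under about 5 RPKM, MS1, MYB80 and the QRT genes among them, rest on few reads.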
